A study of Mus musculus with 12 samples.

Results

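The ligand gene Fgf4 and the 4 receptor genes Fgfr1, Fgfr2, Fgfr3 and Fgfr4 were followed through arrest and release of mouse embryos treated with U0126, which blocks the MEK kinases that activate ERK. They were taken by gene symbol from the array annotation and are 5 of the 18193 genes named there. The annotation gave 17 probe sets to them, 4 for Fgf4, 3 each for Fgfr1 and Fgfr2, 2 for Fgfr3 and 5 for Fgfr4. Each gene is represented by its brightest probe set, and all 5 passed the filter on low values, a log2 level of at least 5 on 2 arrays, as did 9929 genes in all. Because a gene that is high in 1 group alone can pass this filter, passing it is no support for a difference.

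Fibroblast growth factors are secreted proteins that bind receptor tyrosine kinases together with heparan sulfate chains on the cell surface. The activated receptor phosphorylates the adaptor FRS2, which recruits GRB2 and SOS and so starts the RAS, RAF, MEK and ERK cascade. In the mouse blastocyst Fgf4 is known as the ligand made by epiblast precursors, Fgfr1 and Fgfr2 as the receptors through which it directs primitive endoderm, and Fgfr2 also as a receptor of the trophectoderm.

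All embryos were of the ICR strain, and each of the 6 groups had 2 Affymetrix Mouse Genome 430 2.0 arrays, 12 in all. One group was held at the 4-cell stage with 20 µM U0126 and collected at day 2.5. Embryos that resumed division after the arrest were collected at day 3.5 with 8 cells and at day 4.5 as morulae to blastocysts. Control embryos were collected at day 1.5 with 2 cells, at day 2.5 with 4 to 8 cells and at day 3.5 as morulae to blastocysts. The number of embryos behind an array and the treatment of the controls are not given in the sources used here. Values are log2(intensity + 1) of the deposited intensities, so a difference of 1 is a 2-fold change on that scale, and levels are compared between groups within a probe set and never between genes.

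Replicate arrays had a Pearson r between 0.955, for the U0126 embryos, and 0.980 over the tested genes. The number of arrays, 2 a group, limits the precision, and the median standard error of a difference was 0.35. Independent experiments are named in the series text, yet no label ties a replicate to its own culture or animals. The p-values therefore cover the spread between these arrays, which could be technical. Unless the replicate number is named as a block, they and the shares of all genes leave out a pairing of arrays by replicate number. Each array holds RNA of whole embryos, and fewer cells of a type and less RNA per cell cannot be told apart. Of 6 epiblast markers, 6 reached a level of 5 on some array of the U0126 group and of both released groups, and 5, 5 and 6 did so in controls of day 1.5, day 2.5 and day 3.5. Of 4 sperm markers 0 reached 5 in any group. Of 4 blood and immune markers Cd68 alone did so, and of 7 cumulus and granulosa markers Amhr2 alone. Of 3 oviduct epithelium markers, 1 did so under U0126 and in controls of day 1.5 and of day 2.5, and 0 in the other groups. Their summed intensity was 41.4 to 94.0 under U0126, which overlapped the 34.7 to 53.3 at control day 2.5.

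Sequence around the annotated start sites is shown for Fgf4 and Fgfr2, the gene that fell and the gene that rose most among the 5 over the first control step. RefSeq on GRCm38.p6 gave promoter windows, from 250 bases before to 50 after the start, for 4 of the 5 genes. The Fgf4 window lies at chr7:144861136-144861435 on the plus strand with 69.7% G and C, and the Fgfr2 window at chr7:130266759-130267058 on the minus strand with 43.7%. Both are written in the direction of transcription, 5′ to 3′, with matches in capitals on either strand. The motifs searched were the TATA box as TATAAA and its repeat form TATATA, the box CCAAT, the GC box GGGCGG and the octamer bound by POU5F1 as ATGCAAAT.
Fgf4: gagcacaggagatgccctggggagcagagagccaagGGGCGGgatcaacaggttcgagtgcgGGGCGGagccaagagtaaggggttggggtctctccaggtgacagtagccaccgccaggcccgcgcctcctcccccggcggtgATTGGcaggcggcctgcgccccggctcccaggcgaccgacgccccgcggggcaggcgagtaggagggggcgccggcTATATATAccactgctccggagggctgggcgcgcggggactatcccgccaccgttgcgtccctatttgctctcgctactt
Fgfr2: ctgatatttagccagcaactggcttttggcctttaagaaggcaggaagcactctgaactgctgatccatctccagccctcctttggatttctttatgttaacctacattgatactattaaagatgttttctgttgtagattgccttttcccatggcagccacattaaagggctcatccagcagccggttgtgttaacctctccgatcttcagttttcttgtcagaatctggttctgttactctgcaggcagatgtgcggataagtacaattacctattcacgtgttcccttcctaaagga
In the Fgf4 window, 2 overlapping TATATA matches start 30 and 28 bases before the annotated start. A CCAAT match on the opposite strand lies 106 bases before it, and GGGCGG matches lie 214 and 188 bases before it. The Fgfr2 window held 0 matches to the 5 motifs. Of all 32851 windows of this length, 5.67% held the TATA repeat, 37.4% the CCAAT box, 35.7% the GC box, 13.6% the TATA box and 1.74% the octamer. A match is a description of these letters only, and whether any of them is used in these embryos was not tested.

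Fgf4, the ligand, was high in the U0126 embryos and in 2-cell controls and low in the other groups. Its levels were 7.48 and 8.70 on the U0126 arrays, against 5.24 and 5.47 on control arrays of the same day. The U0126 arrays differed from each other by over 1 log2 unit, and both lay above both control arrays. The fitted difference was 2.73 ± 0.37 (SE), 6.65-fold higher under U0126, with an adjusted p of 0.00206 from limma with Benjamini-Hochberg adjustment, which applies to all adjusted p-values below. Without the first U0126 array it was 3.35, and without the second 2.12. Of the 5 genes, 1 was called in this comparison, in which 13.9% of all tested genes were called. Within a fit of only these 4 arrays the adjusted p of Fgf4 was 0.0697, and 0 of all genes were called there, against 2245 at an unadjusted p under 0.05.

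In control embryos Fgf4 fell over the first control step. Its level was 5.24 and 5.47 in 4- to 8-cell controls, against 7.43 and 7.58 in 2-cell controls, a difference of -2.15 ± 0.37 or 4.43-fold (adjusted p = 5.98e-04). In controls of day 3.5 it was 5.01 and 5.15, so that neither array overlapped the 2-cell arrays (-2.43, adjusted p = 2.11e-04). From day 2.5 to day 3.5 the control difference was -0.28 (adjusted p = 0.639). Against 2-cell controls the U0126 embryos had a difference of 0.59 (adjusted p = 0.215), with 1 of their 2 arrays inside the control range and 1 above it. Without the first U0126 array this difference was 1.20 with an adjusted p of 0.0144, and without the second it was -0.03.

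After release Fgf4 fell. The released embryos of day 3.5 had 5.18 and 4.83, against 7.48 and 8.70 in the U0126 embryos a day earlier, a difference of -3.09 ± 0.37 or 8.49-fold (adjusted p = 3.51e-04). Without the first U0126 array the difference was -3.70, and without the second -2.47. These released levels were the lowest group mean of Fgf4 and differed by -0.35 from those of day 2.5 controls (adjusted p = 0.585). At day 4.5 the released embryos had 5.76 and 6.19, both above the released arrays of day 3.5 and the control arrays of day 3.5. These differences of 0.97 (adjusted p = 0.110) and 0.90 (adjusted p = 0.198) did not pass the test.

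The order of Fgf4 by group mean was U0126 day 2.5, control day 1.5, released day 4.5, control day 2.5, control day 3.5 and released day 3.5. Of its neighbours, control day 1.5 and released day 4.5 alone differed by the test (-1.53 for released day 4.5 minus control day 1.5, adjusted p = 0.00395). The summed intensity of 4 oocyte markers was 451 to 666 under U0126, 150 to 209 at released day 3.5 and 43.7 to 46.2 at released day 4.5. In controls it was 4537 to 5794 at day 1.5, 243 to 350 at day 2.5 and 54.1 to 101 at day 3.5. By gene, 0 of the 4 oocyte markers were called between U0126 and day 2.5 controls, where 13.9% of all genes were called. All 4 were called lower under U0126 than in 2-cell controls (median -3.18), where 50.1% of all genes were called. The sums of the 6 epiblast markers were 739 to 1027 at control day 1.5 and 2246 to 2271 under U0126. In the other groups the epiblast sums lay between 3581 and 6415. The sum of 2 markers of the 2-cell stage was 360 to 483 under U0126, 1034 to 1214 at released day 3.5 and 31.9 to 188 at released day 4.5. In controls it was 2118 to 3283 at day 1.5, 45.2 to 116 at day 2.5 and 12.3 to 21.4 at day 3.5. This sum of 2 genes was highest at control day 1.5 and next highest at released day 3.5. The cumulus and granulosa list, in which Amhr2 alone reached a level of 5, summed to 2045 to 2048 under U0126, 442 to 537 at released day 3.5 and 138 to 149 at released day 4.5. It summed to 2717 to 3134, 1202 to 1390 and 200 to 286 in controls of day 1.5, day 2.5 and day 3.5. The blood and immune list, with Cd68 alone above 5, summed to 110 to 175 under U0126, against 39.8 to 44.8 at control day 2.5. The part of these transcripts in the Fgf4 values was not tested.

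**Figure D1:**
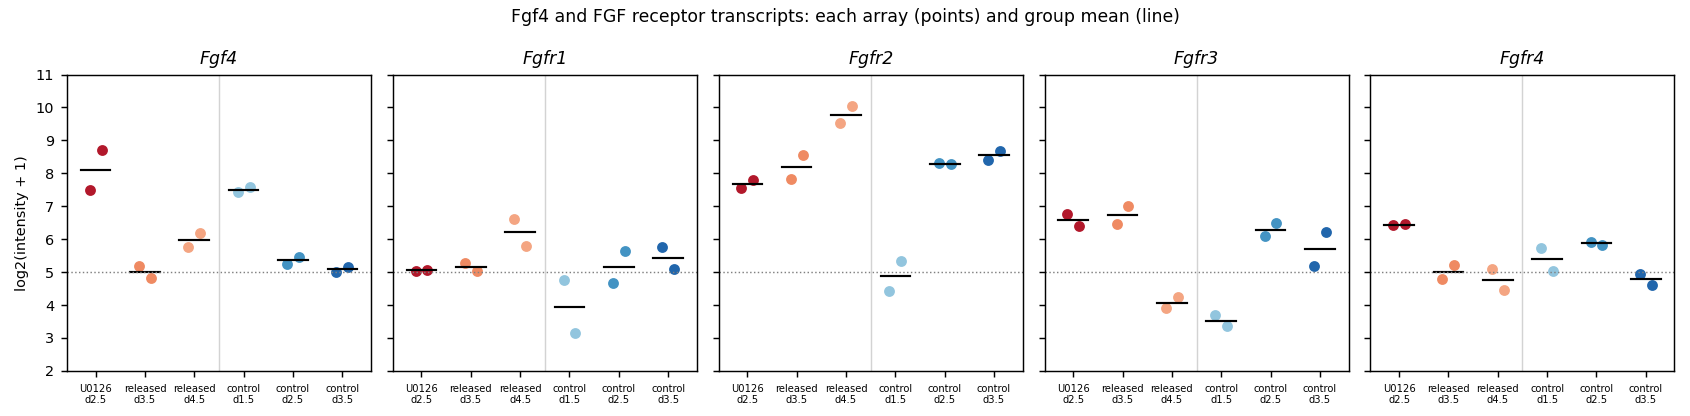
Log2(intensity + 1) of the representative probe set of each gene (vertical axis) in the U0126, released and control groups (horizontal axis, d for day); points are arrays, black lines group means and the dotted line the level of 5 used in the filter. Fgf4 is high at U0126 day 2.5 (7.48 and 8.70) and control day 1.5 (7.43 and 7.58), Fgfr2 is highest at released day 4.5 (9.51 and 10.04), and Fgfr3 lies under 5 at released day 4.5 and control day 1.5.

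Not every Fgf4 probe set followed this course. The representative 1420086_x_at shares its source, an expressed sequence tag, with 1420085_at and 1449729_at, and so these are not independent measurements. The suffix x marks probes that can match other transcripts. The probe set 1420085_at had 7.43 and 8.40 under U0126, against 4.34 and 5.25 in day 2.5 controls (3.12, adjusted p = 0.00208 over 16563 probe sets), and fell over the first control step (-2.47, adjusted p = 4.44e-04). For 1449729_at the U0126 arrays had 6.18 and 8.35, against 4.82 and 5.17, a difference of 2.27 with an adjusted p of 0.0900. The probe set designed on the RefSeq messenger RNA of Fgf4, 1450282_at, had 4.33 and 6.08 under U0126, against 4.36 and 4.43 in day 2.5 controls. Here the groups overlapped, the difference was 0.81 with an adjusted p of 0.344, and the first control step gave -0.99 with an adjusted p of 0.119. None of its 10 comparisons passed the test, and its arrays at released day 3.5, released day 4.5 and control day 3.5 all lay between 4.16 and 4.31, below the level of 5. Which of these probe sets measures the Fgf4 transcript was not tested, and every Fgf4 result above rests on the sets made from the expressed sequence tag.

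Fgfr2, the receptor gene whose product binds several ligands of the family, rose early and stayed high. Its levels were 8.32 and 8.27 in day 2.5 controls, against 4.42 and 5.32 in 2-cell controls, a difference of 3.42 ± 0.36 or 10.7-fold (adjusted p = 2.08e-05). U0126 embryos had 7.56 and 7.80, also far above the 2-cell controls (2.81 ± 0.36, 7.00-fold, adjusted p = 1.16e-04). The rise over the 2-cell level was thus present in arrested embryos. Both U0126 arrays lay below both day 2.5 control arrays, and the difference of -0.62 had an adjusted p of 0.306. In controls of day 3.5 Fgfr2 had 8.41 and 8.69, which is 12.8-fold over 2-cell controls (3.67, adjusted p = 9.19e-06) and 0.25 over day 2.5 (adjusted p = 0.670).

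Among released embryos Fgfr2 was 9.51 and 10.04 at day 4.5, against 7.83 and 8.55 at day 3.5. Both day 4.5 arrays were higher, and the difference of 1.59 ± 0.36 (3.01-fold) passed the test with an adjusted p of 0.0176. Without the first released day 3.5 array it was 1.23 (adjusted p = 0.139), and without the second released day 4.5 array 1.33 (adjusted p = 0.144). Against controls of day 3.5, which were also morulae to blastocysts, released day 4.5 embryos had higher levels on both arrays, by 1.23 ± 0.36 or 2.34-fold, with an adjusted p of 0.0780. With the replicate number as a block the adjusted p was 0.0205, and with a pseudocount of 16 it was 0.0375. Released embryos of day 3.5 differed by 0.51 from U0126 embryos (adjusted p = 0.327) and by -0.11 from day 2.5 controls (adjusted p = 0.883).

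By group mean Fgfr2 ran from released day 4.5 through control day 3.5, control day 2.5, released day 3.5 and U0126 day 2.5 to control day 1.5. Of the neighbours in that order, U0126 day 2.5 and control day 1.5 alone differed by the test. Trophectoderm markers, too, were highest at released day 4.5 and lowest at control day 1.5. Their summed intensity over 7 genes was 41931 to 48452 at released day 4.5 and 15880 to 28471 at control day 3.5. It was 18156 to 18318 at released day 3.5, 1479 to 1811 under U0126, 4373 to 4764 at control day 2.5 and 1096 to 1552 at control day 1.5. Of the 7 markers, all reached a level of 5 on some array at released day 4.5 and 6 at control day 3.5. The primitive endoderm list, also of 7 genes, was likewise highest at released day 4.5 (6633 to 7363) and lowest at control day 1.5 (540 to 703). Under U0126 it summed to 566 to 1006. The sums under U0126 overlapped those of 2-cell controls in both lists. By gene, 4 of the 7 trophectoderm markers were called higher and 0 lower under U0126 than in 2-cell controls, with a median difference of 1.58. A level of 5 was reached on some array by 5 of them under U0126 and by 1 at control day 1.5. Of 6 tested primitive endoderm markers 1 was higher and 1 lower in that comparison, in which 50.1% of all genes were called. The part of either list in the Fgfr2 values was not tested.

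The Fgfr2 course also rests on 1 probe set. The representative 1433489_s_at, whose suffix marks probes shared among transcripts, was the brightest of the 3. The probe set 1420847_a_at, designed on the RefSeq messenger RNA, stayed between 4.05 and 5.69 on all arrays. Its first control step was -0.073 (adjusted p = 0.886) and its difference between U0126 and 2-cell embryos -0.16 (adjusted p = 0.757). Between released day 4.5 and released day 3.5 it was -0.17 (adjusted p = 0.836). Against 2-cell controls this probe set was 0.67 higher at control day 3.5 (adjusted p = 0.147) and 0.91 higher at released day 3.5 (adjusted p = 0.0596). Neither passed the test. The third, 1443211_at, lay between 2.46 and 3.54 throughout. The cause of this disagreement was not tested.

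**Figure D2:**
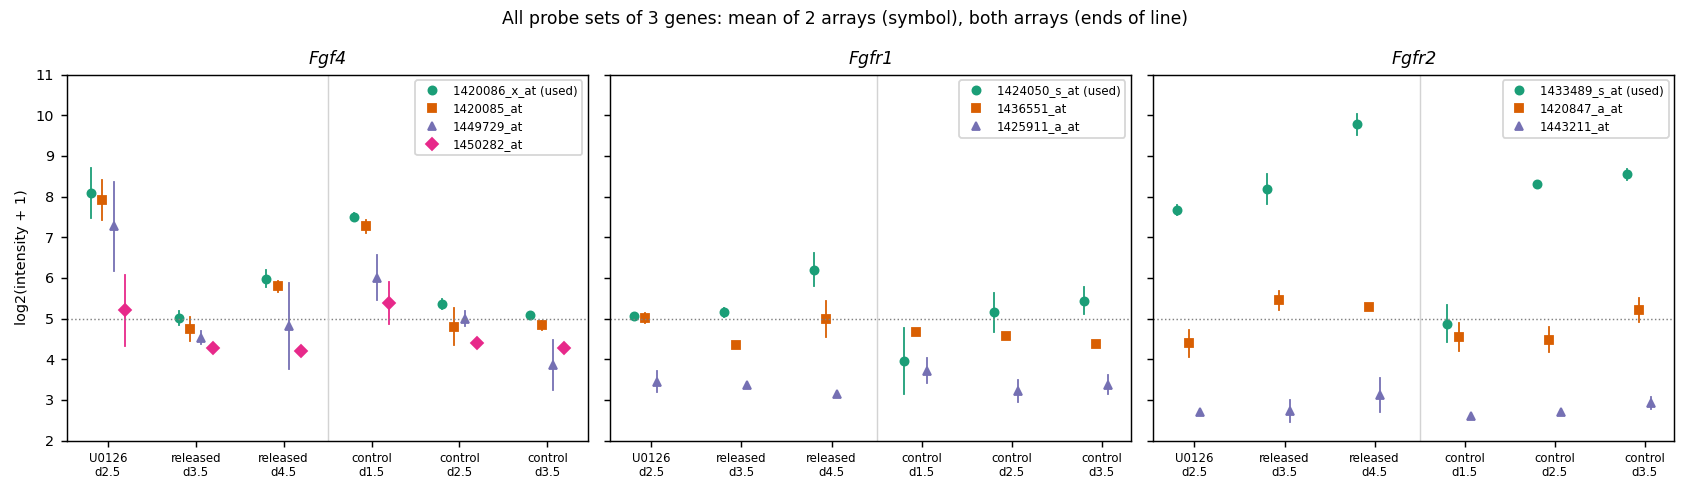
Log2(intensity + 1) (vertical axis) of all probe sets of Fgf4, Fgfr1 and Fgfr2 in each group (horizontal axis); symbols are means of 2 arrays and the ends of each line the arrays themselves. The Fgf4 set 1450282_at lies under 5 in 4 of the 6 groups on both arrays, and the Fgfr2 set 1420847_a_at does not show the rise of 1433489_s_at over the first control step.

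Fgfr3, a receptor gene with 1 probe set that reached a level of 5, was low at control day 1.5 and released day 4.5 and higher in the other groups. It was 6.09 and 6.49 in day 2.5 controls, against 3.69 and 3.36 in 2-cell controls, where both arrays lay under 5. The difference was 2.76 ± 0.37 (adjusted p = 1.08e-04), and counted from the level of 5 the rise was at least 1.29. In controls of day 3.5 it was 5.17 and 6.23, still above 2-cell controls (2.17, at least 0.70 counted from 5, adjusted p = 4.48e-04) and -0.59 from day 2.5 (adjusted p = 0.291). U0126 embryos had 6.76 and 6.40, which is 3.05 ± 0.37 over 2-cell controls (at least 1.58 counted from 5, adjusted p = 8.20e-05) and 0.30 over controls of the same day (adjusted p = 0.669). Like Fgfr2, Fgfr3 was therefore above the 2-cell level in arrested embryos.

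Fgfr3 fell between the released days. At day 4.5 the levels were 3.90 and 4.24, against 6.48 and 7.00 at day 3.5, a difference of -2.66 ± 0.37 (adjusted p = 0.00182), or at least 1.74 counted from 5. Released embryos of day 3.5 differed from U0126 embryos by 0.15 (adjusted p = 0.794) and from day 2.5 controls by 0.45 (adjusted p = 0.472). Released day 4.5 embryos were also lower than controls of day 3.5, whose arrays had 5.17 and 6.23. That difference of -1.63 ± 0.37 had an adjusted p of 0.0306, and counted from 5 the fall was at least 0.70. It passed with all arrays, but without the second control array it was -1.10 (adjusted p = 0.294). Without the first released array it was -1.46 (adjusted p = 0.172) and without the second -1.80 (adjusted p = 0.117). A pseudocount of 16 gave an adjusted p of 0.0502 and no filter on low values 0.0646.

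The order of Fgfr3 was released day 3.5, U0126 day 2.5, control day 2.5, control day 3.5, released day 4.5 and control day 1.5. Control day 3.5 and released day 4.5 were the neighbours that differed by the test, and released day 4.5 differed from control day 1.5 by 0.55 (adjusted p = 0.216). The other Fgfr3 probe set, 1425796_a_at, stayed between 2.76 and 3.01.

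Fgfr4, a receptor gene with 1 of its 5 probe sets reaching a level of 5, was highest under U0126. It had 6.43 and 6.45 in U0126 embryos, against 5.93 and 5.83 in day 2.5 controls. The groups did not overlap, but the difference of 0.56 ± 0.33 had an adjusted p of 0.299. Against 2-cell controls, with 5.74 and 5.04, the U0126 level was 1.05 higher (adjusted p = 0.0208). That call was lost without the second 2-cell array (adjusted p = 0.148) and without either U0126 array (adjusted p = 0.0642 and 0.0607).

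Fgfr4 fell on release and over the second control step. Released embryos of day 3.5 had 4.80 and 5.22, against 6.43 and 6.45 in U0126 embryos, a difference of -1.43 ± 0.33 or 2.70-fold (adjusted p = 0.00858). Without the first released array it was -1.23 with an adjusted p of 0.0650. Controls of day 3.5 had 4.95 and 4.62, against 5.93 and 5.83 at day 2.5, a difference of -1.10 (adjusted p = 0.0358) in which both later arrays lay under 5. From that level the fall was at least 0.88, and leaving out any 1 of the 4 arrays ended the call, with adjusted p between 0.104 and 0.156. Released embryos of day 4.5 had 5.10 and 4.44, which differed by -0.24 from released day 3.5 (adjusted p = 0.695) and by -0.01 from control day 3.5 (adjusted p = 0.993).

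By mean level Fgfr4 ran from U0126 day 2.5 through control day 2.5, control day 1.5, released day 3.5 and control day 3.5 to released day 4.5, and none of these neighbours differed by the test. The adjusted p was 0.323 between released day 3.5 and control day 1.5 and 0.999 between released day 3.5 and control day 3.5. Its other 4 probe sets lay between 2.46 and 3.79.

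Fgfr1, the receptor gene that epiblast and primitive endoderm precursors are known to share, was near the level of 5 in most groups. It had 6.61 and 5.80 at released day 4.5, against 5.26 and 5.05 at released day 3.5 and 5.76 and 5.11 at control day 3.5. Both day 4.5 arrays were higher than any other Fgfr1 array, yet the differences of 1.05 (adjusted p = 0.212) and 0.77 (adjusted p = 0.456) did not pass. In U0126 embryos it had 5.05 and 5.07, against 4.68 and 5.63 in day 2.5 controls, which spanned them (-0.09, adjusted p = 0.944).

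The 2-cell controls had Fgfr1 levels of 4.76 and 3.14, both under 5 and far apart. Controls of day 3.5 were above them by 1.49 ± 0.52 (adjusted p = 0.0273), at least 0.44 counted from 5. Without the second 2-cell array this was 0.68 (adjusted p = 0.262), and without the first 2.30. Without the first day 3.5 array it was 1.16 with an adjusted p of 0.159. The first control step gave 1.21 with an adjusted p of 0.0709, and without the first 2-cell array 2.01 with an adjusted p of 0.00782. U0126 embryos differed from 2-cell controls by 1.11 (adjusted p = 0.0984), and without the first 2-cell array by 1.92 (adjusted p = 0.0117). None of the neighbours in its order, released day 4.5, control day 3.5, control day 2.5, released day 3.5, U0126 day 2.5 and control day 1.5, differed by the test. The second probe set of Fgfr1, 1436551_at, stayed between 4.33 and 5.42, and its difference between control day 3.5 and control day 1.5 was -0.27 (adjusted p = 0.457). The third, 1425911_a_at, lay between 2.95 and 4.03.

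Counts over the 5 genes were set beside those over all tested genes. Over the first control step 3 of the 5 passed, 2 higher and 1 lower, with a median difference of 1.21, against 0.09 over all tested genes, of which 55.4% were called. Between U0126 and 2-cell embryos 3 passed, all of them higher, with 50.1% of all genes called. From control day 1.5 to control day 3.5, where 64% of all genes were called, 4 passed, 3 higher and 1 lower. These shares of the background are near those of the 5 genes and nothing particular to the family can be read from them.

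Over the second control step Fgfr4 alone was called, with a background of 21.6%. On release from U0126 Fgf4 and Fgfr4 fell, with a background of 28.2%. Released day 3.5 embryos against day 2.5 controls gave 0 called of 5 by limma and 1 at an unadjusted p under 0.05, beside 28.3% of all genes at that unadjusted p. By the test 12.6% of all genes were called, which is 1252 genes, and 2017 with the replicate number as a block. Between the released days Fgfr2 rose and Fgfr3 fell, with 13.7% of all genes called, which is 1365 genes, and 2163 with the block. Between released day 4.5 and control day 3.5 Fgfr3 alone was called, with a background of 5.88%, which is 584 genes, and 1017 with the block.

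Whether the last step differed between released and control embryos was tested as the change from released day 3.5 to released day 4.5 minus that from control day 2.5 to control day 3.5. Both steps end in morulae to blastocysts. The difference was -2.08 ± 0.53 for Fgfr3 (adjusted p = 0.0694), which fell by 2.66 in released embryos beside a control value of -0.59. Both released day 4.5 arrays lay under 5, and counted from 5 the released fall was at least 1.74 and the difference between the steps -1.15. With the replicate number as a block its adjusted p was 0.0390, and without the first control day 3.5 array the difference was -2.60 with an adjusted p of 0.0423. For Fgf4 it was 1.25 (adjusted p = 0.242), for Fgfr2 1.34 (adjusted p = 0.201), for Fgfr4 0.86 (adjusted p = 0.371) and for Fgfr1 0.77 (adjusted p = 0.664). Of the 5 genes 0 were called by limma and 3 had an unadjusted p under 0.05, beside 17.8% of all genes. By the test 2.33% of all genes were called, which is 231 genes, and 613 with the block.

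**Figure D3:**
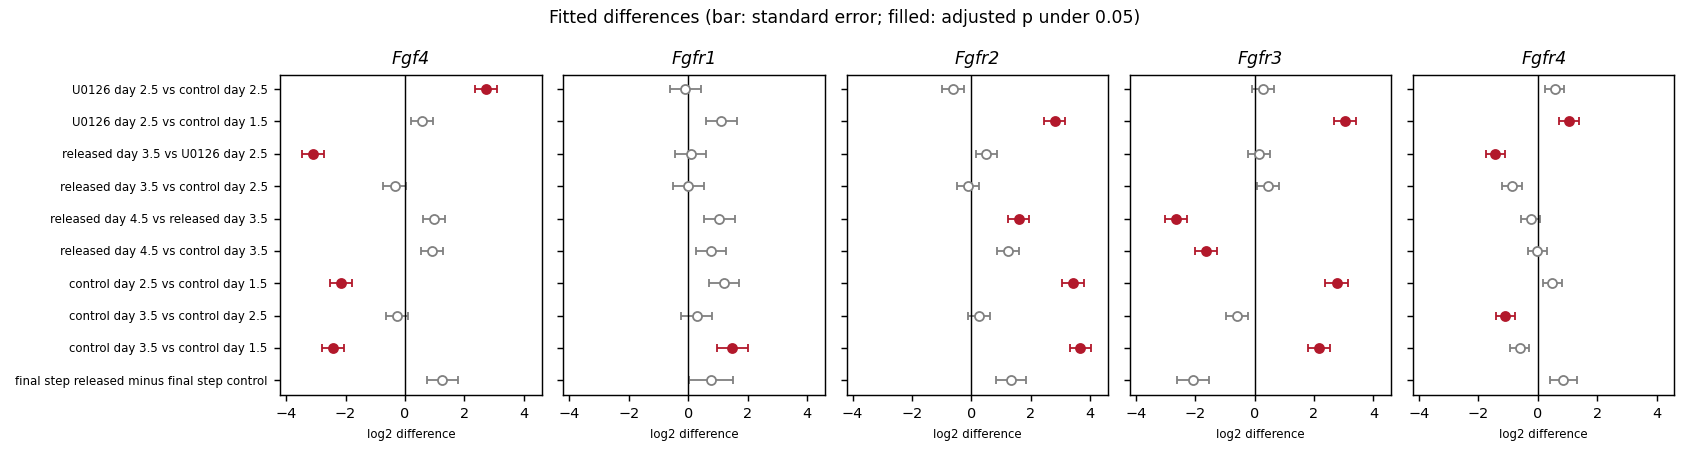
Fitted log2 differences (horizontal axis) of the 5 genes in 9 comparisons between groups and 1 between steps (vertical axis); bars are standard errors and filled points have an adjusted p under 0.05. Fgf4 is higher under U0126 than in same-day controls (2.73) and lower after release (-3.09), while Fgfr3 has its fall between the released days (-2.66).

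Over the 12 arrays Fgfr1 and Fgfr2 ran together with a Pearson r of 0.72 and Fgf4 and Fgfr4 with 0.56, while Fgf4 and Fgfr2 had -0.54. These are descriptions over arrays that fall into 6 groups and share probe set normalization. Among all other tested genes, the levels most like Fgf4 over the 12 arrays were those of Gtf2i (r = 0.968), Ints6l (0.968) and Mapk14 (0.944). Fgfr2 was most like Slc7a6 (0.990), Ndufb8 (0.985) and Marchf6 (0.977). Fgfr3 was most like Faim (0.954), Gabrd (0.944) and Eif4e2 (0.944). Fgfr4 was most like Bcl7a (0.946), Baz1a (0.933) and LTO1 (0.931), and Fgfr1 most like Oxsr1 (0.939), Gramd4 (0.926) and Vps51 (0.915).

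Of the other FGF ligands, 3 of 21 on the array passed the filter. They were Fgf1, a ligand of all FGF receptors, Fgf3 and Fgf13, whose product stays inside the cell. Fgf13 had 4.22 and 4.91 under U0126, against 5.70 and 6.80 in day 2.5 controls, and fell by 1.68 (adjusted p = 0.0192), or by at least 1.25 counted from 5. Without the first U0126 array its adjusted p was 0.107, and without the second control array 0.130. It had risen by 3.60 over the first control step (at least 1.25 from 5, adjusted p = 2.42e-05) and rose by 1.99 on release (at least 1.56 from 5, adjusted p = 0.00413). Fgf1 fell over the second control step, with 3.54 and 5.94 at day 3.5 against 8.40 and 8.17 at day 2.5 (-3.55, adjusted p = 0.00370). Without the first day 3.5 array that was -2.35, and without the second -4.74. Fgf3 was 1.97 higher in day 2.5 than in 2-cell controls (at least 0.63 from 5, adjusted p = 0.0130), a call lost without the second 2-cell array (adjusted p = 0.104) and without the first day 2.5 array (adjusted p = 0.116). The ligands best known in the later embryo, among them Fgf8 and Fgf10, did not pass the filter.

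Heparan sulfate, which FGF ligands need for tight receptor binding, is carried by the syndecans and glypicans. Of 12 tested genes of its core proteins and enzymes, 2 rose and 1 fell over the first control step, in which 55.4% of all genes were called, and the median difference was 0.28. Sdc4, a syndecan, had 8.67 and 8.76 in day 2.5 controls, against 3.19 and 3.96 in 2-cell controls (5.14 ± 0.39, at least 3.71 from 5, adjusted p = 2.27e-06). It rose again over the second control step (2.83, adjusted p = 0.00118) and on release (3.57, adjusted p = 2.20e-04), by 4.17 without the first U0126 array and 2.97 without the second. Gpc4, a glypican, had 6.82 and 7.03 under U0126, against 9.15 and 8.92 in day 2.5 controls, and was the 1 gene of the list called there (-2.11, adjusted p = 0.0233), beside 13.9% of all genes. Leaving out any 1 of the 4 arrays ended that call, with adjusted p between 0.0552 and 0.118. Sdc1, another syndecan, fell by 3.30 between the released days (at least 2.30 from 5, adjusted p = 9.22e-04). Of 4 tested co-receptor and modulator genes, Fgfbp1, a secreted FGF carrier, rose on release (2.59, at least 1.49 from 5, adjusted p = 0.00121), by 1.95 without the first U0126 array and 3.22 without the second, and 0 of the 4 were called under U0126 against day 2.5 controls.

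Inside the cell, 10 of 11 genes of receptor adaptors and effectors were tested. Over the first control step 4 rose and 2 fell, 6 of 10 beside 55.4% of all genes, with a median of 0.74. Plcg1, the phospholipase that binds activated FGF receptors, rose by 3.40 ± 0.26 (at least 2.37 from 5, adjusted p = 2.27e-06), with 7.36 and 7.38 against 4.06 and 3.88 in 2-cell controls. Gab1, a docking protein, rose by 2.30 (adjusted p = 9.22e-05), and the adaptor gene Crk fell by 3.12 (adjusted p = 5.44e-05). Under U0126 against day 2.5 controls Crk alone was called, at 1.31 with an adjusted p of 0.0455, and leaving out any 1 of the 4 arrays ended that call, with adjusted p between 0.0887 and 0.163. On release 0 of the 10 rose and 3 fell, where 28.2% of all genes were called, and the count was 0 to 2 when 1 array was left out. Crk fell by 1.44 (adjusted p = 0.0179), a call lost without the second released array (0.132) and without the second U0126 array (0.0838). Sos2, an exchange factor that activates RAS, fell by 1.38 (adjusted p = 0.0198), and leaving out any 1 of the 4 arrays ended that call. Ptpn11, the phosphatase SHP2, fell by 1.05 (adjusted p = 0.0106), and without the second released array its adjusted p was 0.0742.

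Of 12 tested feedback and target genes of FGF and ERK signalling, 4 were higher and 2 lower under U0126 than in day 2.5 controls. The median over the list was 0.45, against 0.11 over all genes, of which 13.9% were called. Egr1 (2.92) and Fos (1.76) were among the higher genes. Neither was called in a fit of only the arrays compared, but that fit called 0 of all genes and so says nothing particular to them. Without the first control array 2 were higher and 1 lower. Between released day 4.5 and control day 3.5, where 5.88% of all genes were called, 2 were higher and 0 lower. These were Dusp6, an ERK phosphatase (1.60, at least 1.24 from 5, adjusted p = 0.0211), and Egr1, an immediate early transcription factor (2.22, at least 0.53 from 5, adjusted p = 0.0252). Both calls were lost without the second control array (0.183 for Dusp6 and 0.240 for Egr1) and without the second released array (0.187 and 0.180 for the same genes). Dusp6 also lost its call without the first control array (0.0565) and Egr1 without the first released array (0.0887). Pou5f1, Sox2 and Nanog, transcription factors of pluripotent cells of which POU5F1 and SOX2 are known to bind the Fgf4 enhancer together, were set beside Fgf4. Under U0126 against day 2.5 controls 2 of the 3 fell, Nanog with 6.53 and 7.27 against 8.56 and 8.23 and Pou5f1 with 9.56 and 9.19 against 11.42 and 10.53. Their differences were -1.49 (adjusted p = 0.0136) and -1.60 (adjusted p = 0.0425), and without the first U0126 array the adjusted p was 0.0787 for Nanog and 0.0893 for Pou5f1. Without the first control array it was 0.0982 for Nanog and 0.255 for Pou5f1. For Pou5f1 it was also above the threshold without the second control array (0.0549) and without the second U0126 array (0.137). Over the second control step Sox2 rose by 4.06 (at least 3.06 from 5, adjusted p = 0.00152), or by 3.32 without the first day 3.5 array and 4.79 without the second, where Fgf4 had a difference of -0.28.

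Of 12 tested genes of other receptor tyrosine kinases, 1 was higher and 3 were lower under U0126 than in day 2.5 controls (median -0.41), beside 13.9% of all genes. Without the first control array or without the first U0126 array 0 of the 12 were called there, and without the second control array 1 was. The higher gene was Kit, the receptor of stem cell factor (1.36, adjusted p = 0.0386), and among the lower ones were Epha4, an ephrin receptor (-1.96, adjusted p = 0.0182), and Pdgfra (-1.78, adjusted p = 0.0389). Over the second control step 2 rose and 1 fell, beside 21.6% of all genes. Kit was the gene that fell (-1.17, at least 0.25 from 5, adjusted p = 0.0489), a call lost without the second day 2.5 array (0.323) and without either day 3.5 array (0.174 and 0.147). Insr, the insulin receptor gene, had 5.73 and 5.67 in day 3.5 controls, against 3.08 and 2.75 at day 2.5 (2.79, at least 0.70 from 5, adjusted p = 5.47e-04). Erbb3, a receptor of neuregulins, rose by 2.04 (adjusted p = 8.60e-04). Between the released days Pdgfra, the PDGF receptor that marks primitive endoderm, rose by 3.45 (adjusted p = 0.00214), and Insr rose by 2.15 (adjusted p = 0.00262), in the interval in which Fgfr2 rose and Fgfr3 fell.

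**Figure D4:**
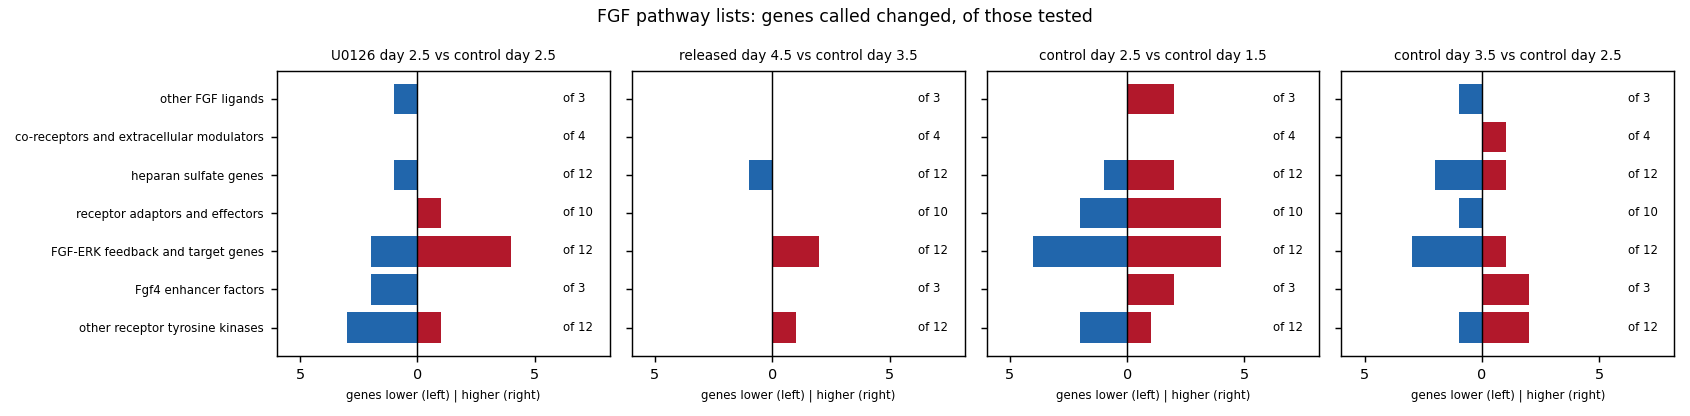
Number of genes called lower (bars to the left) and higher (bars to the right) in 7 lists, with the number tested at the right, in 4 comparisons. Beside genes of the FGF pathway, the lists include other receptor tyrosine kinases and the transcription factors set beside Fgf4. Over the first control step, in which 55.4% of all genes were called, 4 adaptors rose and 2 fell; between released day 4.5 and control day 3.5, with 5.88% of all genes called, the longest bar is the 2 higher feedback and target genes.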

How the data were processed

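Per the labels' protocols, 0.1 µg of total RNA per array was amplified in 2 cycles and labelled with biotin. The authors deposited linear intensity values per probe set, made with GCRMA per the submitters' processing notes, and the series text names GCOS 1.2 and GeneSpring 7.3. No later rescaling is described in the sources used here. Array medians lay between 10.8 and 11.5. Of 45101 probe sets, 64 Affymetrix controls were left out, 34945 had 1 gene symbol, 932 several and 9160 none, and 34741 matched the RefSeq gene table of GRCm38.p6 with 0 symbols updated.

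Intensities were taken as log2(value + 1) without further normalization, with the probe set of the highest mean per gene. All 12 arrays entered 1 limma model (3.58.1, R 4.3.3) of 6 group means, with 6 residual degrees of freedom and 4.51 from the prior. The 9929 genes with a level of at least 5 on 2 arrays were tested with Benjamini-Hochberg adjustment, and an adjusted p under 0.05 was called. Another 6 comparisons between groups, the fits per probe set and a centring on the tested genes were added after the data were seen. The genes and lists were chosen with earlier results of these data known. In each list up to 3 called genes with the largest differences could be named per comparison, and the 3 genes of highest r per member. A called difference against a group under 5 on both arrays was also counted from 5, with any other array under 5 set to 5.

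Replicate numbers paired the arrays: the deviations of replicate 1 from its group mean correlated between groups with r from 0.125 to 0.417 in 15 of 15 pairs of groups (median 0.255). Alternatives were median centring, a pseudocount of 16, no filter, the replicate block, fits of only the compared arrays, the mean of all probe sets and leaving out each array.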

Additional observations from a re-analysis of the deposited data

How the results depend on the processing

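For the 5 genes in 10 comparisons, 540 recomputed values kept direction and call in 491 cases. Another 15 stayed uncalled with a changed sign, 24 lost the call and 10 gained it. The replicate block gained calls for Fgfr3 in the comparison of last steps and for Fgfr2 between released day 4.5 and control day 3.5. The block changed no other call of these genes in the planned comparisons and ended no call of the genes named from the 7 lists. With it the calls over all genes were 613 for the comparison of last steps (231 without), 2017 for released day 3.5 against control day 2.5 (1252), 1017 for released day 4.5 against control day 3.5 (584) and 2163 between the released days (1365), and of the 5 genes 1 (0) and 2 (1) were called in the first and the third of these. Fits of only the compared arrays called 1380 genes for release against U0126 (2798), 313 for released day 4.5 against control day 3.5 (584) and 0 for U0126 against control day 2.5 (1383, with 2245 at an unadjusted p under 0.05). Of the 5 genes they called 0 in the last of these, 0 between released day 4.5 and control day 3.5 and 1 between the released days. Without the filter 0 of the 5 were called over the second control step and 0 between released day 4.5 and control day 3.5. With the mean of all probe sets 2 of the 5 could be tested, and the calls were 2 over both control steps (4 otherwise), 0 over the second (1), 1 on release (2), 0 between released day 4.5 and control day 3.5 (1), 0 between the released days (2) and 1 for U0126 against 2-cell embryos (3). Another Fgfr2 probe set gave values of opposite sign that did not pass the test. They were -0.073 over the first control step, -0.16 for U0126 against 2-cell embryos and -0.17 between the released days. For Fgfr1 another probe set gave -0.27 over both control steps, which did not pass either. The cause was not tested. Leaving out 1 array gave 4611 to 5041 genes over the first control step, 676 to 1563 over the second, 5345 to 5786 over both, 409 to 1183 for U0126 against control day 2.5, 4045 to 4734 for U0126 against 2-cell embryos, 1629 to 2371 on release, 267 to 576 for released day 3.5 against control day 2.5, 321 to 759 between the released days, 84 to 541 for released day 4.5 against control day 3.5 and 30 to 115 for the comparison of last steps. In the same order the calls among the 5 genes were 3 to 4, 0 to 0, 3 to 4, 1 to 1, 2 to 4, 1 to 2, 0 to 0, 1 to 2, 0 to 1 and 0 to 1. Centring on the tested genes moved the median of all genes by -0.20 for U0126 against control day 2.5, where the share of higher calls was 47.0% in place of 66.2%. The shift was -0.21 over the second control step (45.3% in place of 61.7%), -0.20 for released day 3.5 against control day 2.5 (50.8% in place of 68.2%) and 0.16 for the comparison of last steps (56.9% in place of 43.7%). No call of the 5 genes turned or was lost in the planned comparisons, Fgfr1 gained 1 over the first control step (adjusted p = 0.0486), and the Fgf4 difference under U0126 was 2.53. Among the genes named from the 7 lists 221 of 1300 recomputed values lost the call and 0 reversed. Levels near 5 limit what can be read for Fgfr1, Fgfr4 and the low groups of Fgfr3.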
